A study of Mus musculus with 8 samples.

Results

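Plasma proteins and coagulation factors are the secreted proteins that carry lipids, metals and hormones in blood, form and dissolve clots, and hold proteases in check. A list of 39 such genes was examined in RNA from the E18.5 small intestine of mice, just before birth. Members were found by matching their symbols to the gene names printed in the array files, and the brightest probe stood for each gene. The array named a probe for 38 of the 39, among 36161 gene names in all, and 32 members passed the filter for a measurable signal, among 23267 genes tested. The control group was 4 wild-type samples (Rfx6+/+), and the Rfx6 KO group was 4 homozygous null samples (Rfx6-/-). The null allele came from a floxed Rfx6 allele recombined by a CMV-Cre transgene, whose promoter is broadly active, so the homozygotes bred from the resulting heterozygotes carry the recombined allele throughout the embryo by design, not only in the gut. Rfx6 is a transcription factor of the gut and pancreas, and the comparison asks which intestinal genes depend on it.

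In adults the liver makes most plasma proteins. Before birth the yolk sac and other endoderm derivatives, including the gut, also transcribe many of them. Fibrinogen, which thrombin turns into fibrin, is built from 3 chains, each from its own gene. The contact system starts with factor XII (F12) and kininogen (Kng1) and leads to factor XI. The common pathway runs through factors X (F10) and V (F5) to prothrombin (F2), and plasmin, made from plasminogen (Plg), dissolves the clot.

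Each sample was hybridised to its own single-colour array. A level below is log2 of the background-subtracted intensity relative to the 75th percentile of the same array, so that a level of 0 lies at that percentile. A difference is the mean Rfx6 KO level minus the mean control level, in log2 units, with the standard error (SE) of the limma fit over 4 and 4 arrays, and its p was adjusted with limma's moderated statistics by Benjamini-Hochberg over all 23267 genes. Levels of different genes are not compared, because probes differ in brightness. The share of probes with a signal well above background ran from 57.4% to 67.1% per array. The dimmest such signal was 37.6 and 35.1 intensity units on controls 2 and 4 and 35.9 on Rfx6 KO 1. It was 21.6 and 21.3 on controls 1 and 3, and 19.9, 19.8 and 16.0 on Rfx6 KO 2, 3 and 4. For a dim probe, a count of arrays well above background thus depends in part on the array. The sample titles carry different numbers, but nothing states which samples were separate litters, so the p-values measure the spread between these samples. The Rfx6 probe read -3.74 to -2.91 on the control arrays and -3.37 to -2.25 on the Rfx6 KO arrays. It differed by 0.38 (SE 0.29, limma adjusted p 0.504), and was well above background on all 8 arrays, so it gives no check of the labels; whether it lies in the deleted part of the gene is not given in the sources used here. Markers of enterocytes, the absorptive cells that line the small intestine, were well above background on all 8 arrays for 11 of 12 genes. By the numbers in the scan names, all arrays lay on 1 slide. By the same numbers, control 1 and Rfx6 KO 2, 3 and 4 shared row 1. Controls 2, 3 and 4 and Rfx6 KO 1 shared row 2, so that row nearly followed group. That these numbers give the row was inferred and is not stated in the sample labels. With the row as a block 387 genes were higher and 423 lower, against 540 and 604 without it, and the same 9 members were called.

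Among the listed members, more lay higher than lower in the Rfx6 KO intestine. The members were chosen with earlier results of these data known, so their shares do not describe plasma protein genes in general. Ttr, Trf, Apom, Fga, Fgb, Itih2, Kng1 and F5 rose past the adjusted threshold of 0.05, 8 of the 32 tested members (25%), where 2.32% of all genes tested did so. F12 alone fell past it, 1 of 32 (3.12%), where 2.6% of all genes did, so that 9 of 32 were called in either direction, where 4.92% of all genes were. Past the same threshold, 3 of 28 other clotting and fibrinolysis genes rose and none fell. Of 20 other complement genes 1 rose and 2 fell, and of 32 other plasma protein genes 1 rose and 4 fell. Differences were above 0 for 25 of the 32 tested members, where 39.4% of all genes tested had a positive difference. The median difference of the members was 0.67 against -0.05 over all genes. All 4 Rfx6 KO arrays lay above all 4 control arrays for 10 members (31.2%), the 8 that rose together with Hp and C3, where 5.41% of all genes were so separated. They lay below all control arrays for 1 member, F12, where 9.25% of all genes did. Hpx, Itih2, Plg, Igfbp1, Vtn and Hrg passed the filter only through the Rfx6 KO group, and F12 only through the control group. The filter favours a rise in the former and a fall in F12, so these counts and the median rest on it in part. With a filter on all 8 arrays, which 25 members passed, 7 members were higher and 0 lower, against 438 and 600 of 21893 genes. In whole-tissue RNA, more cells of a type and more RNA per cell cannot be told apart.

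**Figure D1:**
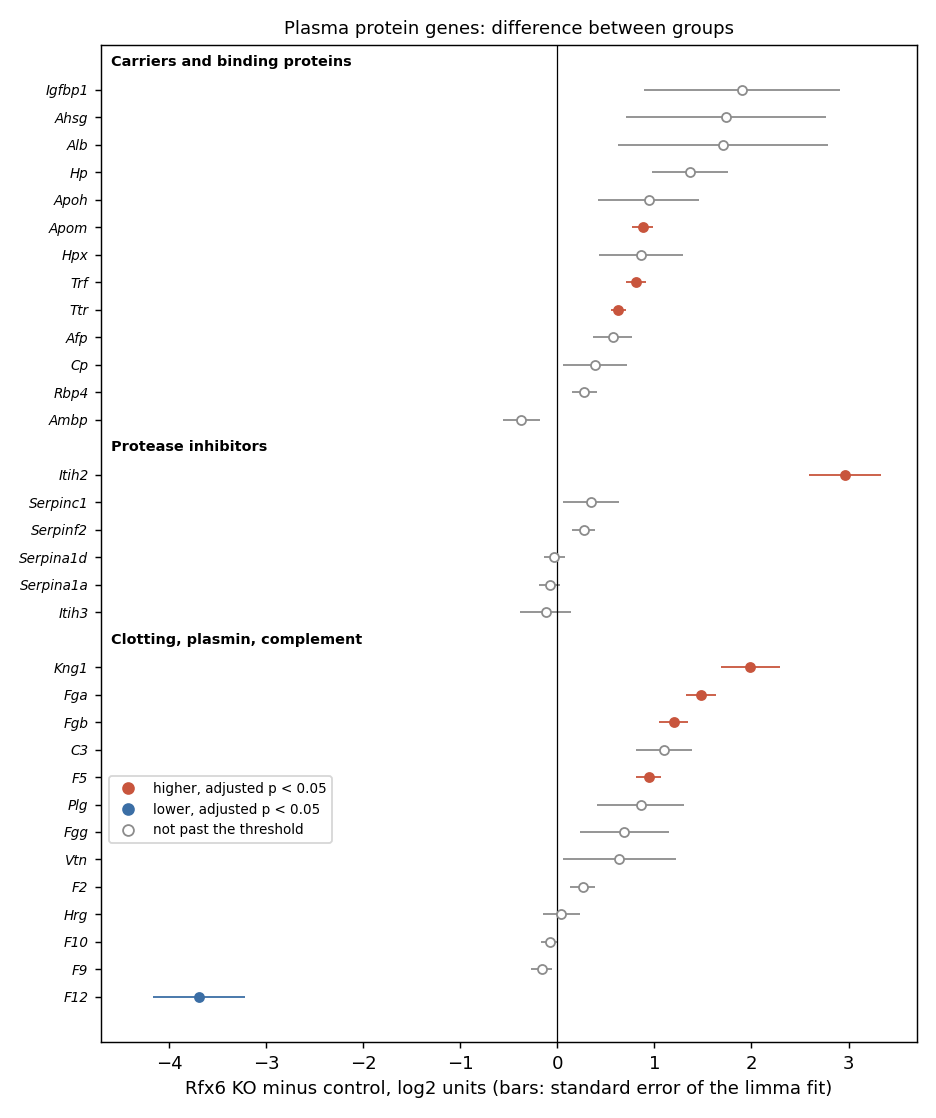
Difference between Rfx6 KO and control in log2 units (x axis) for each of the 32 tested members (y axis), grouped by role; points are limma estimates and bars their standard errors over 4 and 4 arrays. Of the 9 filled points, 8 lie to the right of 0 and F12 lies far to the left, where its Rfx6 KO arrays were at background and its distance from 0 is not a measured size.

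Among the 13 carrier and binding proteins tested, of 15 on the list, 3 rose, none fell and the median difference was 0.86. Transthyretin (Ttr), which carries thyroid hormone and the retinol-binding protein, read 4.41, 4.21, 4.22 and 4.15 on control arrays 1 to 4 and 4.88, 4.83, 4.84 and 4.94 on Rfx6 KO arrays 1 to 4. The groups were apart, and each was tight. The difference was 0.63 (SE 0.08, limma adjusted p 0.003), a 1.54-fold rise. Transferrin (Trf), the iron carrier, read 5.0, 4.56, 4.78 and 4.72 on control arrays and 5.57, 5.63, 5.54 and 5.55 on Rfx6 KO arrays. Its Rfx6 KO levels spanned only 0.08, and the rise was 1.75-fold (difference 0.81, SE 0.10, limma adjusted p 0.003). Apolipoprotein M (Apom), the lipocalin of high-density lipoprotein that binds sphingosine 1-phosphate, read 0.66, 0.39, 0.31 and 0.59 against 1.29, 1.33, 1.60 and 1.26. Every Rfx6 KO array was above every control array, by a mean of 0.88 (SE 0.11, limma adjusted p 0.003).

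Alpha-fetoprotein (Afp), the fetal relative of albumin, read 7.32, 6.54, 7.53 and 7.09 on control arrays and 7.51, 7.61, 7.69 and 7.91 on Rfx6 KO arrays. Control 3 reached the Rfx6 KO range, and the difference of 0.57 (SE 0.20) did not pass (limma adjusted p 0.152). Without control 2, its lowest array, the difference was 0.37. Retinol-binding protein (Rbp4), the partner of transthyretin in plasma, differed by 0.28 (SE 0.13, limma adjusted p 0.271), with overlapping groups. Ambp, whose product is split into alpha-1-microglobulin and bikunin, was the only carrier with a negative difference, -0.37 (SE 0.19, limma adjusted p 0.313).

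Haptoglobin (Hp), which binds free haemoglobin, read -2.47, -3.01, -3.36 and -3.39 on control arrays and -0.66, -2.39, -1.36 and -2.32 on Rfx6 KO arrays. The groups were just apart, with Rfx6 KO arrays 1 and 3 well above the other two, and the difference of 1.37 (SE 0.39) missed the threshold (limma adjusted p 0.084). Hemopexin (Hpx), the haem carrier, was well above background on 1 control array and on 4 Rfx6 KO arrays, with overlapping levels and a difference of 0.86 (SE 0.43, limma adjusted p 0.300), which was 0.18 with a normexp background correction and 0.31 with the deposited normalized matrix. Ceruloplasmin (Cp), the copper-carrying ferroxidase, differed by 0.39 (SE 0.33, limma adjusted p 0.553). The remaining carriers, Alb, Ahsg, Apoh and Igfbp1, varied most between arrays of the same group and are described with the array-to-array pattern.

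The 3 fibrinogen genes lie side by side on chromosome 3. Fga and Fgb passed the threshold and Fgg did not, but whether their differences differ from each other was not tested. Fga, for the alpha chain, read -1.02, -1.29, -0.77 and -0.65 on control arrays and 0.38, 0.76, 0.58 and 0.46 on Rfx6 KO arrays. Every Rfx6 KO array lay above the 75th percentile of its array and every control array below it, and Fga rose 2.79-fold (difference 1.48, SE 0.15, limma adjusted p 0.001). Fgb, for the beta chain, read 2.24, 1.56, 2.10 and 1.91 against 2.96, 3.10, 3.19 and 3.35. It rose 2.30-fold (difference 1.20, SE 0.15, limma adjusted p 0.003). Fgg, for the gamma chain, read 0.69, -0.95, -1.47 and -1.15 against 0.70, -0.43, 0.09 and -0.49. Control 1 lay next to the highest Rfx6 KO array, and the difference of 0.69 (SE 0.46) did not pass (limma adjusted p 0.443). Without control 1 the Fgg difference was 1.16 (limma adjusted p 0.099). On mm9 the probes lie at chr3:82837260-82837319 for Fga, at base 3080 of its transcript, at chr3:82846334-82846393 for Fgb, at base 1406, and at chr3:82818825-82818884 for Fgg, at base 1376.

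The start regions of these genes are shown because they share cluster and coagulation role. Each run is the 250 bases before the start site on GRCm38 from RefSeq, 5′ to 3′ on the gene's own strand. Capitals mark GTTAAT, the core of sites bound by the liver and gut factor HNF1, on either strand (its reverse complement is ATTAAC).
Fga promoter, chr3:83025903-83026152, plus strand: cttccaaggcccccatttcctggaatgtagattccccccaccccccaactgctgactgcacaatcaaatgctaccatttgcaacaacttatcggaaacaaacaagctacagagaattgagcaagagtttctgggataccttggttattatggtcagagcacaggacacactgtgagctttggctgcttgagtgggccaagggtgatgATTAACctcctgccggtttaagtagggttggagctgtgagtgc
Fgb promoter, chr3:83049864-83050113, minus strand: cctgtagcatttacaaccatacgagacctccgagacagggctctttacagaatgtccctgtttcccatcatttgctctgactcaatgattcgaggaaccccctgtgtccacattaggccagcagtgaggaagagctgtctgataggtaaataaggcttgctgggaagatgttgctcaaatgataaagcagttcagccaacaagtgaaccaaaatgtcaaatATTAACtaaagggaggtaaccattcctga
Fgg promoter, chr3:83007474-83007723, plus strand: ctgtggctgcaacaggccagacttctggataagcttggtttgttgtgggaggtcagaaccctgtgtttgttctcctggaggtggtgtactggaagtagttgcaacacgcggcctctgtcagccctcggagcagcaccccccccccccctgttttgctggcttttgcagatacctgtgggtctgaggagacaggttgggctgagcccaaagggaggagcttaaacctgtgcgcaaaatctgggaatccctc
The core began at -43 from the start site in Fga and at -29 in Fgb, on the reverse strand of both, and was not found in the Fgg window. A C/EBP-type motif, TTGCNNAA, where N is any base, was found at -135 in Fga and at -80 in Fgb but not in Fgg. These matches describe letters, not binding, and the motifs were picked with the expression results known. Whether they bear on the differences between the groups was not tested.

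Over the 33 members with a RefSeq promoter window, searched on both strands, the GTTAAT core was found in 11 (33.3%), against 7.49% of 27025 genes. The C/EBP-type motif TTGCNNAA was found in 15 (45.5%), against 10.8%. Forkhead-type motifs were found as TGTTTGC in 8 (24.2%, against 4.93%) and as TGTTTAC in 4 (12.1%, against 3.54%). Serpina1a, Serpina1b and Serpina1d, near copies in a gene cluster, all counted for GTTAAT and for TGTTTGC. Serpina1b and Serpina1d also counted for TTGCNNAA. These are not separate cases, so they raise the member shares. GTTGCC, the core of the X-box that RFX factors bind, was found in 1 member, C3 (3.03%), against 11.8% of all genes. The windows of 3 more members are shown for members whose groups overlapped (albumin), rose (Itih2) and fell (F12).
Alb promoter, chr5:90460620-90460869, plus strand: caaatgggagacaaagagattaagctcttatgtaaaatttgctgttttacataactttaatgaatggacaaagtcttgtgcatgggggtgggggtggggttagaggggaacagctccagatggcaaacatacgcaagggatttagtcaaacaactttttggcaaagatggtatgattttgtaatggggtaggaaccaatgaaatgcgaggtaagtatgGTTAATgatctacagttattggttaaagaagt
Itih2 promoter, chr2:10130684-10130933, minus strand: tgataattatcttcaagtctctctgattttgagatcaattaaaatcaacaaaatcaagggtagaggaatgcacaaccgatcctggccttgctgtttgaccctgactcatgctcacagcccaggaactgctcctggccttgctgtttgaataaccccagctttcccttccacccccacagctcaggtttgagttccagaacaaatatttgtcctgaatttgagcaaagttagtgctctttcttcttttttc
F12 promoter, chr13:55426805-55427054, minus strand: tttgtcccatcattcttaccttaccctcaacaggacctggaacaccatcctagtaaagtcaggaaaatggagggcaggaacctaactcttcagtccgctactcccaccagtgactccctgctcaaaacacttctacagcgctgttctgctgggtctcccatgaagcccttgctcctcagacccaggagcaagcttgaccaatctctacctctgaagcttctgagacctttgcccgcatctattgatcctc
In the albumin window the GTTAAT core began at -32, the C/EBP-type motif at -94 and TGTTTGC at -128, and in the Itih2 window the C/EBP-type motif began at -33. None of the 5 motifs was found in the F12 window.

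In the rest of the clotting, plasmin and complement group, 13 of 15 members were tested, fibrinogen included. Of these 4 rose, 1 fell, and the median difference was 0.69. The contact system held the fall and one of the rises. F12, the zymogen that autoactivates on charged surfaces, read -2.77, -2.75, -2.67 and -2.53 on control arrays, all well above background. On Rfx6 KO arrays its signal was not well above background on any of the 4, so those levels have no order. F12 was lower in Rfx6 KO (limma adjusted p 0.003), with a nominal bound of 4.97-fold. The bound ran from the control mean to the Rfx6 KO side. On each Rfx6 KO array that side was the higher of the probe's own signal and the dimmest signal well above background. Signals not well above background can lie above that dimmest one, so the bound is not a strict limit. It also applies to the background-subtracted signal only. The difference was -1.20 with normexp, which adds an offset, and -1.18 with the deposited normalized matrix. Both were short of the bound and both past the threshold. Its probe lies at chr13:55519456-55519515 on mm9, from base 1774 of the transcript.

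Kng1, for kininogen, the cofactor of factor XII and source of bradykinin, read -0.09, -1.74, -1.15 and -1.14 on control arrays and 1.18, 0.83, 1.01 and 0.82 on Rfx6 KO arrays. It rose 3.98-fold (difference 1.99, SE 0.30, limma adjusted p 0.007), and even its highest control array, control 1, lay below every Rfx6 KO array. F12 and Kng1 thus moved in opposite directions on the same arrays. Both Kng1 probes list accessions of Kng1 and of its near copy Kng2, and so does the probe named Kng2, which differed by 1.88 (SE 0.29, limma adjusted p 0.008); these probes cannot divide the signal between the genes. F11, which activated factor XII cleaves, stayed near background throughout, with 0 arrays well above it.

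F5, the cofactor that factor Xa needs to activate prothrombin, read -3.20, -3.14, -2.93 and -3.30 on control arrays and -1.93, -2.20, -2.24 and -2.46 on Rfx6 KO arrays. It rose 1.92-fold (difference 0.94, SE 0.13, limma adjusted p 0.004), and its second probe was well above background on 2 Rfx6 KO arrays and on no control array. With a background correction by normexp the F5 difference was 0.56 and still past the threshold. Prothrombin (F2) read -0.72 to -0.22 on control arrays and -0.37 to -0.05 on Rfx6 KO arrays, a difference of 0.26 (SE 0.13, limma adjusted p 0.288). Factor IX (F9), which activates factor X, differed by -0.16 (SE 0.11, limma adjusted p 0.444). Plg was well above background on 2 control arrays and on 4 Rfx6 KO arrays, and its difference of 0.86 (SE 0.45) did not pass (limma adjusted p 0.326); it was 0.30 with normexp and 0.41 with the deposited normalized matrix.

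C3, the central component of complement, read 1.82, 0.87, 2.07 and 2.29 on control arrays and 3.00, 3.02, 3.03 and 2.41 on Rfx6 KO arrays. The groups did not overlap, but Rfx6 KO 4 lay just above the highest control, and the difference of 1.1 (SE 0.29) missed the threshold (limma adjusted p 0.071). It passed with normexp (1.09, limma adjusted p 0.048) and with the deposited normalized matrix (1.14, limma adjusted p 0.046); over all 18 alternatives its limma adjusted p ran from 0.046 to 0.329. Vitronectin (Vtn), an adhesive protein that binds the terminal complement complex, differed by 0.64 (SE 0.58, limma adjusted p 0.570), and histidine-rich glycoprotein (Hrg) by 0.04 (SE 0.19, limma adjusted p 0.919).

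**Figure D2:**
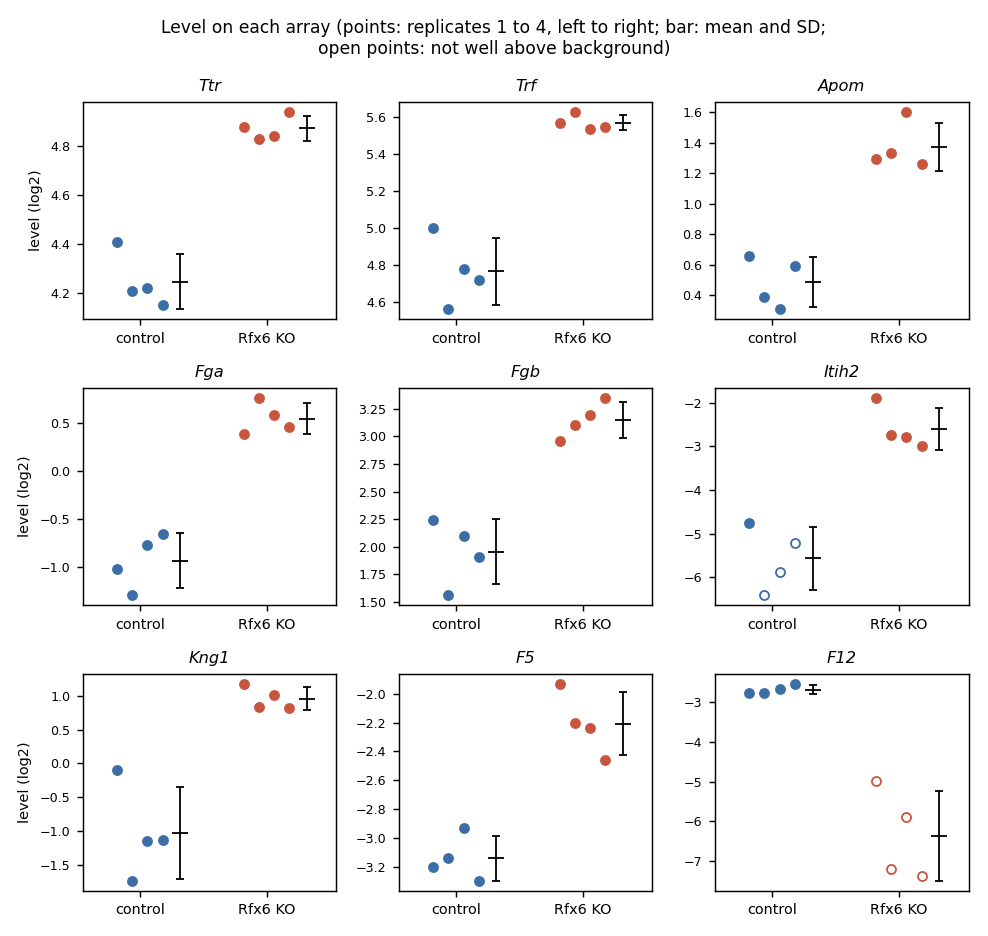
Level (y axis, log2 relative to the 75th percentile of the array) of the 9 members past the threshold on each control and Rfx6 KO array; bars are group means and SDs, and open points were not well above background. In the 8 that rose every Rfx6 KO point lies above every control point, and for F12 all 4 Rfx6 KO points are open.

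Factor X depended on the probe. The F10 probe chosen by brightness read 9.26 to 9.57 on control arrays and 9.26 to 9.41 on Rfx6 KO arrays, a difference of -0.08 (SE 0.09, limma adjusted p 0.645). The dimmer F10 probe read 4.91, 4.77, 4.68 and 4.71 on control arrays and 4.22, 4.15, 4.35 and 4.22 on Rfx6 KO arrays, with no overlap. When every probe was tested it fell by 0.53 (SE 0.08, limma adjusted p 0.010), where 2.04% of the 31662 probes were called lower. On mm9 the dimmer probe lies at chr8:13055774-13055833, from base 1600 of the factor X transcript, and the brighter at chr8:13056119-13056178, from base 1945; stretches of 30 bases of them are shown because their letters differ in what else they match. Capitals mark 20 bases that also occur, exactly, in array probes named for other genes.
F10 brighter probe, its bases 29 to 58: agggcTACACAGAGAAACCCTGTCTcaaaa
F10 dimmer probe, its bases 1 to 30: tggcatctacacaaaggtcacgaccttcct
The brighter probe shared stretches of 20 bases with probes of 10 other genes and also lists an accession of Glrx2. Its stretch in capitals occurred in 16 of 32851 RefSeq promoter windows, and its letters are those of the B1 repeat family. The dimmer probe shared no stretch of 20 bases with any other gene's probe or with those windows. The flat reading of the brighter probe therefore cannot be read as factor X alone.

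Of the members that rose, 4 had a second probe. Fga differed by 1.48 and 1.47 on its probes, Trf by 0.81 and 0.83, and Kng1 by 1.99 and 1.93. The dimmer Kng1 probe was well above background on 1 control array and on 4 Rfx6 KO arrays. It passed the filter through the Rfx6 KO group only, and its 1.93 is not a measured size. With every probe tested the second probes of Fga, Trf and Kng1 were called higher as well, where 2.01% of probes were. These genes were picked because their brighter probes had risen on the same samples, so these calls are no independent support. The second F5 probe was too dim to be tested. It was well above background on no control array and on 2 Rfx6 KO arrays, so its group means give no size. C3 differed by 1.1 and 0.89, and neither probe passed (limma adjusted p 0.078 and 0.054 with every probe tested). Serpina1a differed by -0.08 and -0.32, and neither probe passed. In all, 11 members had more than 1 probe, and 49 probes carried a member's name.

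**Figure D3:**
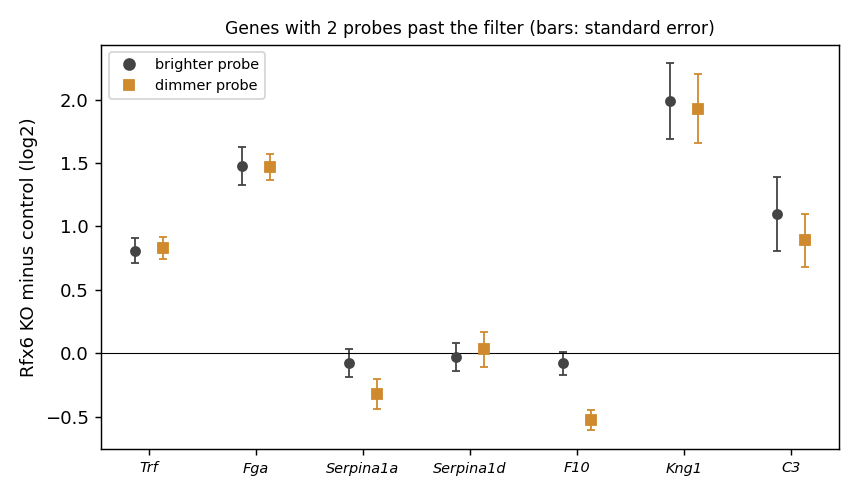
Difference between Rfx6 KO and control (axis in log2 units, bars are standard errors of the limma fit with every probe tested) for members with more than 1 tested probe, one point per probe. The pairs of Fga, Trf and Kng1 lie close together, and the F10 pair lies apart, at -0.08 and -0.53. The dimmer Kng1 probe was well above background on only 1 control array, so its point is not a measured size.

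Of the 9 protease inhibitors on the list 8 were on the array and 6 were tested; 1 rose, none fell, and the median difference was 0.12. Itih2, a heavy chain of the inter-alpha-trypsin inhibitor that stabilises hyaluronan, read -4.76, -6.41, -5.89 and -5.21 on control arrays, 1 of which was well above background, and -1.89, -2.74, -2.79 and -3.00 on Rfx6 KO arrays, all well above it. The groups were apart, with a difference of 2.96 (SE 0.37, limma adjusted p 0.003). With most control arrays at background this is not a measured size: it moved with the background correction, to 1.12 with normexp and 1.17 with the deposited normalized matrix, both below the Kng1 and Fga differences in those settings, and stayed past the threshold in both. Of its sister chains, Itih3 differed by -0.12 (SE 0.26, limma adjusted p 0.817) and Itih1 was well above background on 2 control and 3 Rfx6 KO arrays, too few to be tested.

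The serpins did not pass the test. Antithrombin (Serpinc1), the main inhibitor of thrombin, read -0.87, -1.78, -1.85 and -1.85 on control arrays and -0.59, -1.74, -1.13 and -1.48 on Rfx6 KO arrays. Each group had its highest level on array 1, and the difference was 0.35 (SE 0.29, limma adjusted p 0.538). Alpha-2-antiplasmin (Serpinf2), which blocks plasmin, differed by 0.27 (SE 0.12, limma adjusted p 0.239). Alpha-1-antitrypsin, the inhibitor of neutrophil elastase, is encoded in mice by a cluster of near copies on chromosome 12. Serpina1a read 6.12, 5.63, 5.95 and 5.85 against 5.76, 5.78, 5.94 and 5.75, a difference of -0.08 (SE 0.11, limma adjusted p 0.727), and Serpina1d differed by -0.03 (SE 0.11, limma adjusted p 0.90).

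Probes of that cluster are shown because their letters limit which copy they read. Capitals mark the bases equal to those of the Serpina1a probe.
Serpina1a probe, its bases 7 to 36: GTCATCCTTCCTTCTGAATTGGGTTCCTTC
Serpina1c probe, its bases 16 to 45: GTCATCCTTCCTTCTGAATTGGGTTCCTTC
Serpina1e probe, its bases 17 to 46: GTCATCCTTCCTTCTGAATTGGGTTCCTTt
The first pair was identical over these 30 bases and the third differed only at the last base, so their readings of -0.08, -0.04 and -0.08 are not independent. Serpina1b had no probe of its own name, and a Serpina1d probe lists its accession. These readings are reported for the cluster and not for a single copy.

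Several members moved far more between arrays of 1 group than between groups. Albumin (Alb), the main plasma carrier, read 1.75, -1.38, -3.16 and -2.91 on control arrays and 1.96, -0.62, 0.73 and -0.93 on Rfx6 KO arrays. Control 1 and Rfx6 KO 1 were both high, and the groups overlapped over most of their range. The difference was 1.71 (SE 1.08, limma adjusted p 0.417), and it was 2.77 without control 1 and 1.13 without control 3. Fetuin-A (Ahsg), which binds calcium phosphate, read 2.40, -0.33, -2.20 and -2.05 against 2.74, 0.36, 1.71 and -0.02. Its arrays stood in the same order as those of albumin in both groups, and it differed by 1.74 (SE 1.03, limma adjusted p 0.382), or 2.72 without control 1 and 1.19 without control 3. Igfbp1, a binding protein of insulin-like growth factors, read -0.18, -3.63, -5.30 and -4.41 against -0.07, -2.36, -1.55 and -1.94. It was well above background on 2 control arrays and on 4 Rfx6 KO arrays. The difference was 1.90 (SE 1.01, limma adjusted p 0.331), and it was 0.97 with normexp and 1.1 with the deposited normalized matrix. Without control 1, which leaves controls mostly at background, it was 2.96 and past the threshold (limma adjusted p 0.044).

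Control levels spanned more than 2 log2 units for 6 of the 32 tested members (18.8%), Alb, Ahsg, Igfbp1, Vtn, Fgg and Apoh, where 1.38% of all genes did. In all 6 the highest control array was control 1, the highest Rfx6 KO array was Rfx6 KO 1 and the next was Rfx6 KO 3. Beta-2-glycoprotein I (Apoh), which binds anionic phospholipid, read -1.53, -3.44, -3.62 and -3.60 against -1.15, -2.59, -1.90 and -2.78, a difference of 0.94 (SE 0.52, limma adjusted p 0.351). Of the 32, 15 (46.9%) were highest on both of those arrays, where 3.52% of all genes were. The 8 members that rose had control ranges of 0.26 to 1.65. Among these, Ttr, Trf, Fgb, Kng1, Apom and Itih2 were also highest on control 1 within the control group, and Kng1 and Itih2 on Rfx6 KO 1 within theirs as well. Over all genes tested, control 1 was the highest control array for 25.6% and Rfx6 KO 1 the highest Rfx6 KO array for 15.8%.

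**Figure D4:**
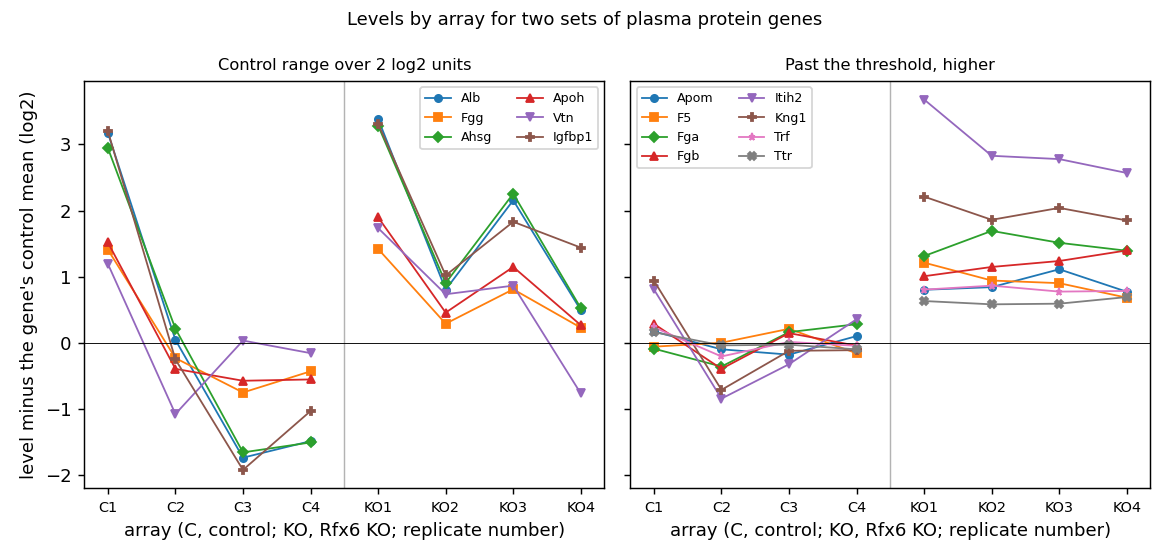
Level minus the gene's mean control level (y axis, log2 units) on each of the 8 arrays (x axis) for the 6 members with a wide control range (left) and the 8 members that rose (right); lines join the points of 1 gene and imply no order of arrays. The wide members are highest on control 1 among controls and on Rfx6 KO 1, then Rfx6 KO 3, among Rfx6 KO arrays, and the members that rose step up between the groups.

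With control 1 and Rfx6 KO 1 both left out, a setting chosen after the data were seen, the same 8 members were higher and F12 lower. Without those arrays Alb differed by 2.21 (limma adjusted p 0.183), Igfbp1 by 2.49 (limma adjusted p 0.051), Fgg by 0.91 (limma adjusted p 0.107) and Apoh by 1.13 (limma adjusted p 0.083). None of these passed.

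Markers of other tissues were measured beside these results. Of 25 hepatocyte genes outside the list, 5 of which also stand on the complement or other plasma protein lists, 12 were tested, with 1 higher, 2 lower and a median difference of 0.14. Among them Hao1, Gys2, Cyp7a1, Mug1, Serpina3k, C9, Hamp and Baat were well above background on 0 arrays. Slc10a1 was left out of the mean, because its bright probe also lists accessions of other genes. Mean levels of the other 11 tested markers lay between -1.96 and -1.60 on control arrays and between -1.90 and -1.42 on Rfx6 KO arrays. These means were highest on control 1 and on Rfx6 KO 1. Of all 12 tested markers, only 2 were themselves highest on both of those arrays, where 3.52% of all genes were. Hal, for histidase, rose (difference 1.47, SE 0.19, limma adjusted p 0.003), and Slc27a5, for a bile acid ligase, fell by 0.99 (SE 0.11, limma adjusted p 0.001). Of 12 exocrine pancreas markers 11 were tested and none was called, with a median difference of -0.78; 10 of them were highest on both control 1 and Rfx6 KO 1, with mean levels of -0.18 to 1.23 on control arrays and -0.83 to 0.75 on Rfx6 KO arrays. Stomach epithelium markers rose for 10 of 12 tested genes, with mean levels of -4.65 to -3.16 on control arrays and 1.86 to 2.61 on Rfx6 KO arrays. Only 5 of those 12 were well above background on all 8 arrays, so the control mean is in part a background reading and no median difference is given. Gkn2, a gastric mucosal protein, was well above background on no control array. On the background-subtracted signal, its rise had a nominal bound of 2086-fold, counted as for F12 and likewise not a strict limit. Enterocyte markers fell for 5 of 12 with a median of -0.37, and their mean level went from 4.51 to 4.88 on control arrays to 4.26 to 4.55 on Rfx6 KO arrays. Of the erythroid, platelet and macrophage markers 8, 6 and 8 were tested and none was called; their median differences were -0.41, 0.16 and 0.15. The part of any of these tissues in the plasma protein results was not tested.

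Other genes of the same pathways were tested on the same arrays. Of 30 further clotting and fibrinolysis genes 28 were tested, with 3 higher and none lower and a median difference of 0.21. The urokinase receptor Plaur rose (difference 1.04, SE 0.20, limma adjusted p 0.019), as did Gas6, a vitamin K-dependent ligand of TAM receptors (0.64, SE 0.13, limma adjusted p 0.027), and Tfpi, the inhibitor of the tissue factor pathway (0.60, SE 0.13, limma adjusted p 0.031). Of 28 complement genes 20 were tested, with 1 higher and 2 lower and a median of 0.09. C4bp, an inhibitor of the classical pathway, rose (0.67, SE 0.09, limma adjusted p 0.004). C8g, for the gamma chain of the membrane attack component C8, read 2.28, 1.91, 1.96 and 1.90 against 0.62, 0.87, 1.11 and 0.64 and fell by 1.20 (SE 0.14, limma adjusted p 0.002), and the lectin Mbl2 fell by 1.41 (SE 0.26, limma adjusted p 0.017).

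Of 48 other plasma protein genes 32 were tested, with 1 higher (Kng2), 4 lower and a median of 0.11. Apcs, the pentraxin serum amyloid P, read -0.42, -0.24, -0.69 and -0.77 on control arrays and -2.53, -3.02, -2.27 and -2.23 on Rfx6 KO arrays. It fell by 1.98 (SE 0.19, limma adjusted p 7.52e-04), with no overlap. The other three were apolipoproteins of the lipid-absorbing intestine: Apoc2 fell by 0.68 (SE 0.10), Apoa4 by 0.61 (SE 0.12) and Apoc3 by 0.45 (SE 0.09), with limma adjusted p of 0.007, 0.022 and 0.024. Of 14 liver-enriched transcription factors 13 were tested, with a median difference of -0.13 and 5 above 0; the forkhead genes Foxa1, Foxa2 and Foxa3 rose, by 1.23, 1.00 and 0.67 (limma adjusted p 0.002, 0.005 and 0.007), while Hnf4g fell by 0.75 (limma adjusted p 0.023).

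The 6 members on the array that were not tested were not well above background on all 4 arrays of either group. They were Serpina6, the corticosteroid carrier, Serpind1, or heparin cofactor II, Fetub, a relative of fetuin-A, F7, which binds tissue factor, F11 and Itih1. F7 was well above background on 3 Rfx6 KO arrays and no control array, with overlapping levels, -5.92 to -4.54 against -5.54 to -4.29. Fetub was well above background on 1 control and 3 Rfx6 KO arrays, Serpina6 on 2 control and no Rfx6 KO arrays, and Serpind1 on 1 of each. The dimmest signal well above background differed between arrays, so these counts are not read as a difference between the groups. Serpina6 read -2.37 on control 2 and -6.93 to -4.39 on the other controls.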

How the data were processed

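Total RNA (100 ng) from 4 control and 4 Rfx6 KO intestines was labelled with cyanine 3, per the labels' protocols, and read with Agilent Feature Extraction 10.10.1.1 on a grid built on mm9, per the file headers. In the deposited scanner files each spot has a processed intensity, already background-subtracted by Feature Extraction, per the file headers. The deposited series matrix holds intensity values that followed quantile-normalized spot medians. Each array held 62976 spots; 3671 control spots and 153 to 355 outlier spots were left out, and no spot was saturated. Averaging spots gave 55681 probes, and log2 levels were centred on each array's 75th percentile, 635.8 to 740.6 intensity units. A gene was its brightest probe and was tested if well above background on all 4 arrays of a group.

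The group difference was tested two-sided by limma 3.58.1 (lmFit, eBayes; R 4.3.3) at a Benjamini-Hochberg adjusted p of 0.05; the fit was tested on simulated data. All arrays shared 1 slide, by the scan names, and 1 scan date. The number of arrays limits the precision. The members and lists were chosen with earlier results of these data known. All members are named, and of the other lists the called genes, up to 6 per list, though not all are printed. Alternatives were normexp (offset 50), quantile normalization, no filter, a filter on all 8 arrays, averaged probes, every probe on its own, the series matrix, slide row or replicate number as a block, and leaving out arrays. Promoter windows are RefSeq's, on GRCm38.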

Additional observations from a re-analysis of the deposited data

Results flagged for a closer look

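Each group of 4 arrays was searched, for every tested member, for 1 array far from the other three. Of 64 groups 5 (7.81%) held such an array, where chance gives about 1 in 20, or 3.2. Serpinc1 read -0.87 on control 1 and -1.85 to -1.78 on the other controls. Apoh read -1.53 on control 1 and -3.62 to -3.44 on the others. Serpinf2 read 0.41 on control 2 and 0.72 to 0.75 on the others. C3 read 2.41 on Rfx6 KO 4 and 3.00 to 3.03 on the other Rfx6 KO arrays. Serpina1a read 5.94 on Rfx6 KO 3 and 5.75 to 5.78 on the others. None of these 5 genes was called.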

How the results depend on the processing

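The 9 called members kept their direction and call in all 160 values computed under 18 alternatives; with the filter on all 8 arrays F12 and Itih2 were not tested. Of 409 values of the other members, 388 kept their call and direction, 4 passed the threshold (C3 under 2 settings, Igfbp1, F10) and 17 changed sign without passing it. Members called lower were 0 with the filter on all 8 arrays and 2 (F10, F12) with averaged probes, where F10 differed by -0.30 (limma adjusted p 0.043), or with every probe tested.

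Calls over all genes moved more. Without a filter 297 were higher and 201 lower. Leaving out 1 array gave 347 to 511 higher and 233 to 592 lower; these were 351 and 242 without control 1, 351 and 245 without Rfx6 KO 1, and 347 and 233 without Rfx6 KO 2, and 312 and 356 were lower without controls 3 and 4. Without control 1 and Rfx6 KO 1 they were 186 and 95. With the replicate number as a block they were 264 and 148, and the same 9 members were called; same-numbered arrays deviated together with correlations of -0.07, -0.17, 0.07 and -0.41, so the numbers were not taken to pair the samples.

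Sign changes were small. Serpina1a was 0.06 with quantile normalization, 0.07 with the series matrix and 0.02 without control 1 and Rfx6 KO 1, and ran from -0.16 to 0.02 as arrays were left out. Serpina1d was 0.04, 0.02 and 0.01 in those settings, 0.00 with the mean of probes, 0.04 without control 1 and 0.02 without Rfx6 KO 2, from -0.10 to 0.04 as arrays were left out. Itih3 was 0.05 with the slide row as a block. Hrg was -0.09 with normexp, -0.01 with the series matrix, -0.03 with the slide row, and ran from -0.08 to 0.17 as arrays were left out. The cause of these changes was not tested. Members near background, such as Itih2, Hpx and Plg, have less certain sizes.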
